A study of Homo sapiens with 13 samples.

Results

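CCRF-CEM cells made resistant to the NAMPT inhibitor FK866 (CEM RES) were compared with the parental cells they came from (CEM PA), both without added drug. The comparison used every mock array of both lines, which are 7 of the 13 arrays of the study, 4 of CEM RES and 3 of CEM PA, and all genes with a usable probe. Mock cells received vehicle only and were collected at 48 h. CCRF-CEM is an established human T cell acute lymphoblastic leukemia line. CEM RES was raised in gradually increasing FK866, the labels call it a resistant population and put the resistance of the cells used at 100 nM, and according to the Methods it was kept under FK866 during routine passages, so mock CEM RES were not cells that had never met the drug. The other 6 arrays hold the same lines with 5 nM FK866 for 48 h, 2 of CEM PA and 4 of CEM RES. They serve below as a second measurement of the line difference, there with any drug response included. Total RNA was labelled with Cy3 and hybridized to Agilent Human GE 4x44K v2 arrays. The labels number the arrays of a group as biological replicates and say no more about the cultures, so the p values measure the spread between these arrays.

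NAMPT makes nicotinamide mononucleotide from nicotinamide, the step that sets the pace of the salvage route to NAD+, and FK866 blocks it. T cell acute lymphoblastic leukemia grows from T cell precursors of the thymus, and its cells keep much of the thymocyte program, including the T cell receptor complex, signalling through Notch and interleukin 7, and transcription factors such as TCF7, LEF1 and BCL11B. The genes described below are those of surface markers, signalling, transcription factors, immune and stress responses, cell death, growth and chromosomal position, while respiration, glycolysis and drug efflux are not described.

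Both lines carried the markers of their type. All 17 T cell leukemia markers were well above background on every mock array of both lines, with median log2 signals of 12.7 in CEM PA and 12.75 in CEM RES. Of the defining fibroblast markers, 0 of 4 were above background on all arrays of either line. Of 5 breast epithelial markers, for the other cell line of the study, KRT8 and KRT18 were above background on all arrays of both lines and EPCAM and CDH1 on 0. Between 26457 and 31882 of 43118 spots that were not controls were well above background on the mock arrays.

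The lines were scanned in different sessions. Mock CEM PA array 1 was scanned in session 1, mock CEM PA arrays 2 and 3 in session 2, and all CEM RES arrays in session 3, so line and scan session cannot be told apart in any difference below. Within CEM PA, 111 of 17596 genes (0.631%) passed the test between sessions 2 and 1, fitted with the mock and FK866 arrays together. That contrast rests on few arrays and includes none of session 3, so it cannot measure a session effect between the lines. In bulk RNA, fewer cells of a type and less RNA per cell cannot be told apart.

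A gene is called here when limma gave a Benjamini-Hochberg adjusted p under 0.05 over all genes and the difference exceeded 0.75 on the log2 scale. Of 17596 genes tested, 5849 (33.2%) were called, 2961 higher (16.8%) and 2888 lower (16.4%) in CEM RES, and the median difference of all genes was 0.04. The arrays of both lines did not overlap in 8598 genes (48.9%), and 5540 genes (31.5%) were called and did not overlap. Genes named below as the largest differences or as leading list members were chosen among these 5540. Their lack of overlap follows from that choice. The counts of each gene group below are read against 16.8% higher and 16.4% lower. Every difference is CEM RES minus CEM PA on the log2 scale of normalized signal, with its standard error after ±, and a gene "at" a value has that difference.

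The widest shift belonged to RNAs without a poly(A) tail. Of 40 replication-dependent histone genes tested, which make the core and linker histones of S phase from messages that end in a stem-loop, 36 were higher and 0 lower, with a median difference of 3.81. Relative to the CEM PA mean, their median on each array was -0.64, 0.81 and -0.14 for CEM PA and 3.74, 3.58, 4.08 and 3.91 for CEM RES. HIST1H3D, a histone H3 gene, read 9.98, 12.08 and 11.12 on the CEM PA arrays and 16.78, 16.33, 16.83 and 16.67 on the CEM RES arrays, a difference of 5.60 ± 0.41 (adjusted p = 2.13e-06). Small nucleolar and small nuclear RNAs, which guide RNA modification and splicing, were higher in 39 of 50 tested and lower in 1, with a median of 1.60. The exception was RNU4ATAC, an RNA of the minor spliceosome, at -1.73. Of 13 transcripts of RNA polymerase III looked for, 4 had a probe, and all 4 were higher. RN7SK, which holds the elongation factor P-TEFb in an inactive complex, read 8.40, 11.49 and 11.81 on the CEM PA arrays and 15.87, 15.54, 16.003 and 16.13 on the CEM RES arrays, while RMRP (4.03), RPPH1 (3.26) and RN7SL1 (2.76), the RNA parts of RNase MRP, RNase P and the signal recognition particle, followed. The CEM PA array of session 1 was the lowest for RN7SK, and the lines did not overlap. The variant histone genes, whose messages do carry a poly(A) tail, behaved otherwise. Of 10 tested, 0 were higher and 4 lower, with a median of -0.43, and H1FX, a linker histone, was lower, at -1.42 ± 0.17 (adjusted p = 5.74e-05).

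Properties of the probes moved with the line difference too. Genes measured by probes with up to 35% GC had a median difference of -0.27, with 10.5% called higher and 25.8% lower, while genes measured by probes above 55% GC had a median of 0.52, with 35.2% higher and 6.07% lower. Where a transcript had several probes, the most upstream was higher relative to the most downstream, and the gap grew with the distance between them. It was 0.071 over 383 transcripts with probes up to 300 bases apart and 0.753 over 832 transcripts with probes more than 2000 bases apart, of which 77.4% had the higher difference upstream. On the FK866 arrays the gap did not grow in this way, with 0.042, -0.033, -0.162 and 0.149 over the 4 classes of distance, and between the CEM PA sessions it was -0.003, -0.072, -0.078 and 0.091. Of 4088 genes with more than 1 kept probe, 1363 were called by the probe used, and in 441 of those every kept probe was called the same way, 199 higher and 242 lower, while in 160 probes were called in both directions. These values stand beside every result that follows. Fits after correction for probe GC and with the most downstream probe of each gene were run as alternatives. How much of any single difference these probe properties account for was not tested. Where probes of a named gene were called differently, their values are given with the gene.

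**Figure D1:**
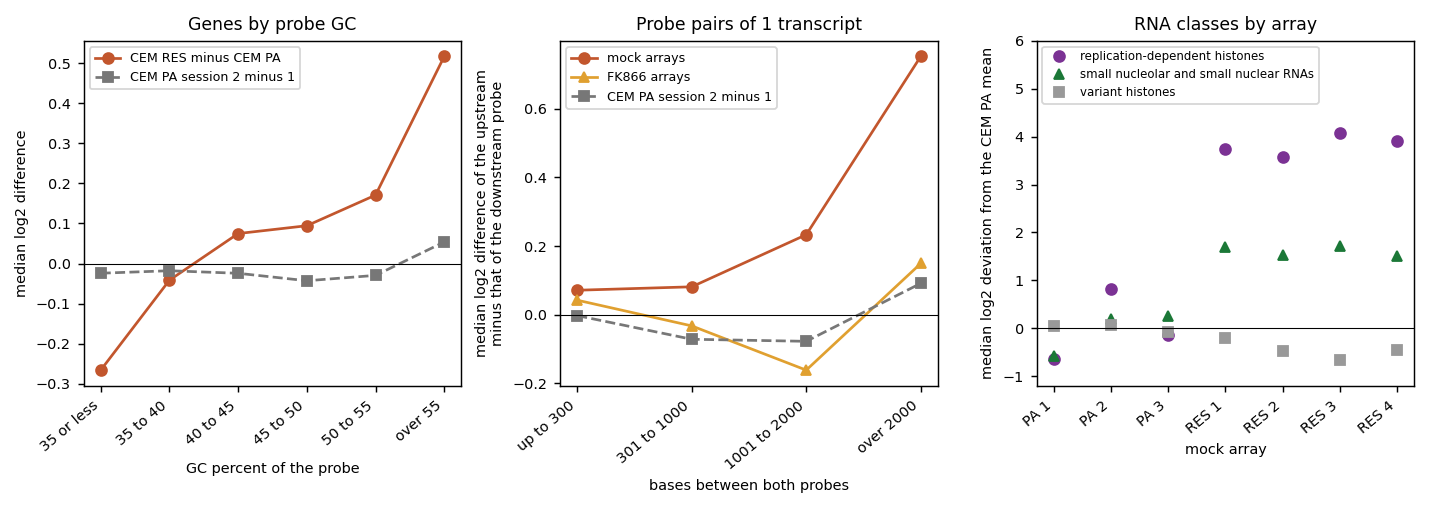
Left, the median log2 difference of genes by the GC content of their probe, for mock CEM RES against CEM PA (circles) and for CEM PA session 2 against session 1 (squares). Middle, the difference of the most upstream probe minus that of the most downstream probe of the same transcript by the bases between them, for mock arrays, FK866 arrays and CEM PA sessions. Right, the median deviation of 3 RNA classes from the CEM PA mean on each mock array. The line difference runs from -0.27 to 0.52 over the GC classes, the probe gap reaches 0.753 in mock arrays, and replication-dependent histones lie at 3.58 or above on every CEM RES array.

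On the T cell surface, genes differed one by one. Of 36 genes of the receptor complex and T cell surface, 31 were tested, 6 were higher (19.4%) and 4 lower (12.9%), shares near those of all genes. CD3E, a signalling chain of the T cell receptor, read 10.77, 10.30 and 10.69 on the CEM PA arrays and 11.70, 11.27, 11.76 and 12.09 on the CEM RES arrays, a difference of 1.12 ± 0.19 (adjusted p = 0.000607), and CD3G, another such chain, differed by 1.20 ± 0.16 (adjusted p = 0.000126). The lines did not overlap for either. CD3D, at 0.11, did not pass the test. CD247, the zeta chain, was at 0.04 with the probe used, and its other probe was called lower, at -0.96. PTPRCAP, which binds the phosphatase CD45, was 3.23-fold higher (adjusted p = 2.63e-05), and CD99, an adhesion protein of thymocytes, was 1.95-fold higher. CD5, which dampens T cell receptor signals, read 12.51, 11.56 and 11.91 on the CEM PA arrays and 10.90, 9.44, 9.57 and 10.21 on the CEM RES arrays, 3.89-fold lower in CEM RES (adjusted p = 0.000775). CD69, an early activation antigen, differed by -1.80 and was lower with both of its probes. THY1, a surface glycoprotein of thymocytes and neurons, was above background on 2 of 3 CEM PA arrays and 0 of 4 CEM RES arrays and was at least 2.38-fold lower. The differences of CD4 (-0.12), CD7 (0.06), CD2 (-0.15) and CD1A (0.49) did not pass the test. CD28, a co-stimulatory receptor, did not pass with the probe used (0.35), and its other probe was called higher, at 1.30. PTPRC, which encodes CD45, did not pass with the probe used (0.74 ± 0.45), while 3 of its 5 probes were called higher and all ranged from 0.43 to 2.31.

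Behind the receptor, 37 of 39 signalling genes were tested, 3 were higher and 9 lower. NFATC1, a calcium-dependent transcription factor of activated T cells, read 12.52, 12.15 and 12.49 on the CEM PA arrays and 10.11, 8.75, 8.38 and 9.70 on the CEM RES arrays and was lower with both probes. Its relative NFATC2 was higher by 1.72 ± 0.20 (adjusted p = 4.47e-05) with the probe used and by 0.57, which was not called, with its other probe. TXK, a kinase of the TEC family, was above background on all CEM PA arrays and 0 CEM RES arrays and at least 2.56-fold lower. CSK, the kinase that restrains LCK, was 1.8-fold higher. SH2D1A, the adaptor of SLAM receptors, was higher by 1.64 with the probe used, while its 3 probes ranged from -0.61 to 1.64. The lowest member was PREX1, an exchange factor for RAC, at -5.80 ± 0.38.

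**Figure D2:**
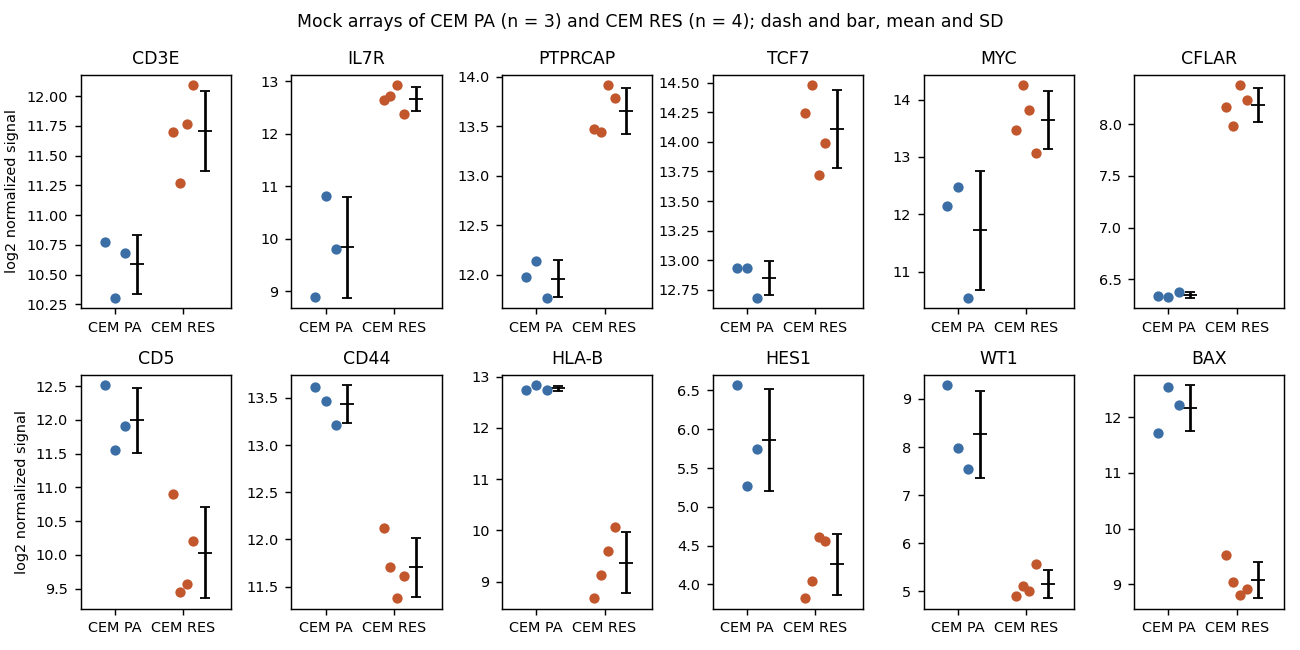
Log2 normalized signal of 12 genes on each mock array of CEM PA (3 points) and CEM RES (4 points), with the mean and SD beside the points. The y axes differ between genes and do not start at 0. The lines do not overlap in any of the 12, and CEM PA array 1 is the lowest for IL7R and the highest for WT1 and HES1.

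Transcription factors of the T lineage were lower more often than higher. Of 47 tested, 16 (34.0%) were lower and 6 (12.8%) higher, and their median was -0.39, lying between -0.53 and -0.22 in all alternatives. TOX2, an HMG-box factor of lymphocytes, was lower, at -3.03 ± 0.29 (adjusted p = 1.16e-05), ID1, an inhibitor of E proteins, at -2.88 ± 0.23 and KLF2, which keeps T cells quiescent and drives their egress from the thymus, at -2.76 ± 0.23. For these 3 genes the lines did not overlap, which the rule that named them required. KLF2 was above background on 3 of 4 CEM RES arrays. LEF1 and TCF7, HMG-box factors of early thymocytes, went opposite ways. LEF1 differed by -1.11 ± 0.18 (adjusted p = 0.000347), whereas TCF7 read 12.94, 12.94 and 12.68 on the CEM PA arrays and 14.24, 14.48, 13.72 and 13.99 on the CEM RES arrays, 2.39-fold higher, with both of its probes higher. TCF4, an E protein, was higher by 2.10 ± 0.18. IKZF1, which encodes IKAROS, differed by 1.69 with the probe used and by 0.25 with its other probe. GATA3 (-0.73), measured by 1 probe, did not pass the test. BCL11B (0.26) and MYB (-0.15) did not pass with the probes used, but the other probe of each was called higher, at 1.45 and 2.09. RUNX1 was at -0.21 with the probe used, and its 5 probes ranged from -1.997 to 0.90, with 1 called higher and 1 lower.

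Among 18 tested genes linked to leukemia as oncogenes or targets of mutation, 6 were higher and 3 lower. PHF6, a chromatin protein often mutated in this leukemia, read 5.88, 7.14 and 7.82 on the CEM PA arrays and 9.98, 9.63, 10.13 and 9.86 on the CEM RES arrays, a difference of 2.95 ± 0.35 (adjusted p = 4.96e-05). The homeobox genes HOXA5 and HOXA9 were higher by 2.85 and 1.97, with HOXA5 above background on 2 of 3 CEM PA arrays. MYC, a driver of growth downstream of Notch in this leukemia, read 12.14, 12.48 and 10.55 on the CEM PA arrays and 13.47, 14.25, 13.81 and 13.07 on the CEM RES arrays. All CEM RES arrays were above all CEM PA arrays, of which array 3 was lower than the rest, and the difference was 1.93 ± 0.44 (adjusted p = 0.00334). WT1, a zinc finger factor, read 9.28, 7.98 and 7.54 on the CEM PA arrays and 4.91, 5.12, 5.005 and 5.57 on the CEM RES arrays, a difference of -3.11 ± 0.34 without overlap. NKX2-5, the homeobox gene activated in CCRF-CEM by a translocation, was higher by little more than the limit (0.76 ± 0.16), and without CEM PA array 2 (0.68), CEM RES array 2 (0.75) or CEM RES array 4 (0.67) it was not called. TAL1 (-0.53), LMO1 (0.00), LMO2 (0.29) and LYL1 (0.04) did not pass the test.

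The Notch pathway had the largest share of lower genes among the protein-coding lists. Of 35 members 26 were tested, 12 (46.2%) were lower and 1 higher, and the median was -0.69, between -0.88 and -0.43 in all alternatives. The receptor NOTCH1 itself differed by 0.31 ± 0.14 and did not pass the test. JAG2, a ligand, read 7.57, 7.58 and 7.89 on the CEM PA arrays and 3.12, 3.40, 2.15 and 4.43 on the CEM RES arrays and was above background on 2 of 4 CEM RES arrays. Some known targets of the pathway were among the lower genes. MYC, which is not on this list and was described above as downstream of Notch, was higher (1.93). HES1, a repressor, read 6.56, 5.27 and 5.74 on the CEM PA arrays and 3.82, 4.04, 4.61 and 4.56 on the CEM RES arrays, NRARP, a feedback inhibitor, differed by -2.20 ± 0.22 (adjusted p = 1.49e-05), and PTCRA, the invariant chain of the pre-T cell receptor, by -1.24 ± 0.22 (adjusted p = 0.000636). The lines did not overlap for these 3 targets, and HES1 and NRARP were above background on 3 of 4 CEM RES arrays. RBPJ, the DNA-binding partner of Notch, was at -1.31 and FBXW7, a ubiquitin ligase subunit that clears active Notch and MYC, at -1.25. The list member that was higher in CEM RES was MAML3, a co-activator, at 0.85, above background on 2 of 3 CEM PA arrays. Its other probe was at 0.46 and not called, and without CEM PA array 1 it was not called (0.57). NOTCH3 read 8.65, 8.60 and 10.02 on the CEM PA arrays and 5.38, 7.49, 7.47 and 8.40 on the CEM RES arrays and differed by -1.91 ± 0.59 (adjusted p = 0.0177), but it was not called without CEM PA array 3 (-1.45), and on the FK866 arrays its difference was 0.20. The median of the list on the FK866 arrays was -0.39.

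**Figure D3:**
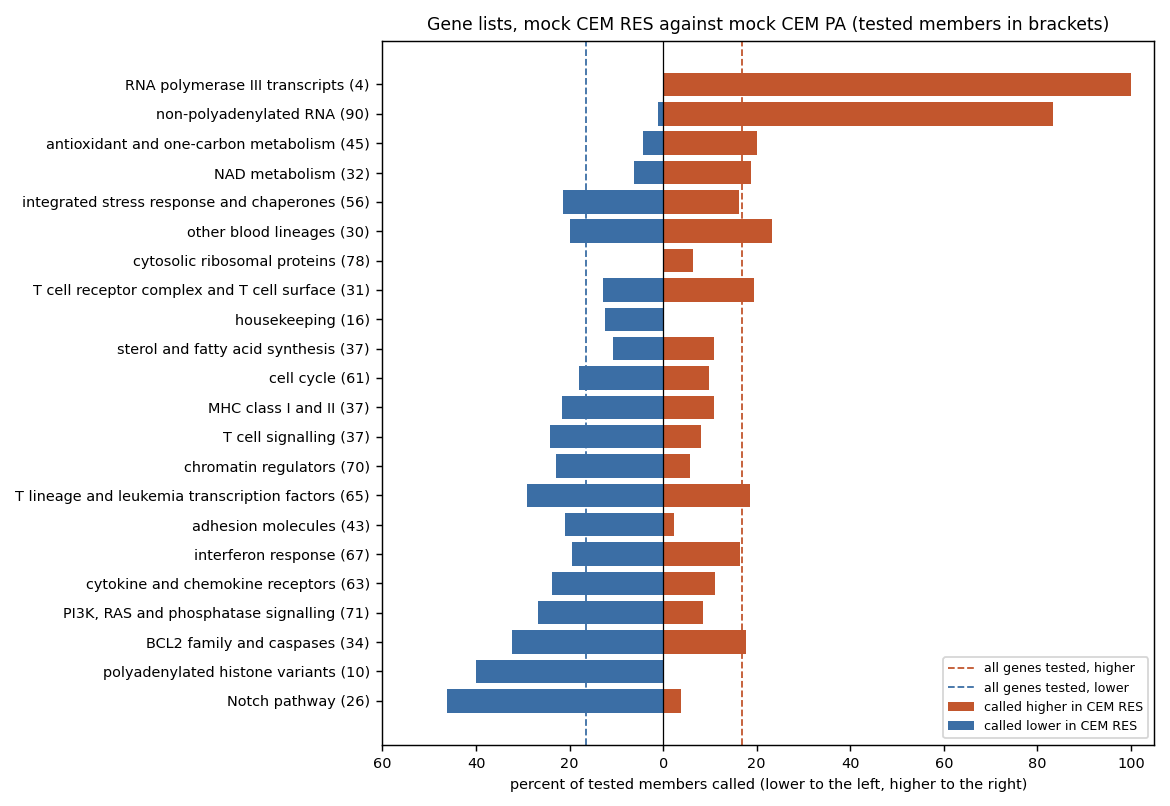
Percent of the tested members of each of 22 gene lists called higher (right) and lower (left) in mock CEM RES, with the number of tested members in brackets and dashed lines for all genes tested (16.8% higher, 16.4% lower). The Notch pathway has 46.2% lower, non-polyadenylated RNA 83.3% higher, and cytosolic ribosomal proteins 6.4% higher and 0 lower.

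Cytokine receptors differed member by member. Of 63 tested of 84, 7 were higher and 15 lower. IL7R, the receptor chain for the cytokine that thymocytes and T cells need for survival, read 8.90, 10.82 and 9.80 on the CEM PA arrays and 12.64, 12.72, 12.92 and 12.37 on the CEM RES arrays, 7.08-fold higher in CEM RES (adjusted p = 8.85e-05). CRLF2, which pairs with IL7R to bind thymic stromal lymphopoietin, was higher by 2.45 ± 0.37, with 2 of 3 CEM PA arrays above background, and its other probe, at 0.82, was not called. GPR183, which guides lymphocytes along oxysterols, was higher by 2.11 ± 0.30, with 2 of 3 CEM PA arrays above background. IL2RB, the shared chain of the interleukin 2 and 15 receptors, read 7.37, 7.996 and 7.67 on the CEM PA arrays and 3.82, 5.19, 3.70 and 4.88 on the CEM RES arrays, and 2 of 4 CEM RES arrays were above background. IL15RA was higher by 1.74 with the probe used and ranged from -0.26 to 1.74 over 3 probes. Receptors of the TNF family were lower in 4 of 13 tested and higher in 0. TNFRSF10D and TNFRSF10C, decoy receptors for the death ligand TRAIL, were lower, at -2.78 and at least 2.2-fold, and TNFRSF25, a death receptor, at least 3.35-fold, the last pair with 0 CEM RES arrays above background. Among homing receptors, CXCR4 (-0.45) stayed under the fold limit, while CCR7, which leads T cells to lymph nodes, was at -1.07 ± 0.38 and was not called without CEM PA array 1 (-1.11), CEM PA array 3 (-0.84), CEM RES array 2 (-0.97) or CEM RES array 3 (-0.84). On the FK866 arrays CCR7 differed by 0.17.

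Adhesion molecules were lower in 9 and higher in 1 of 43 tested, with a median of -0.23. CD44, the hyaluronan receptor, read 13.61, 13.47 and 13.21 on the CEM PA arrays and 12.12, 11.71, 11.38 and 11.62 on the CEM RES arrays, 3.31-fold lower (adjusted p = 2.40e-05). The integrin chains ITGAV and ITGB7 were lower, at -1.94 ± 0.21 and -1.90 ± 0.39. ITGA4, which pairs with ITGB7 in homing to the gut, was at -1.58 with the probe used, but its 3 probes ranged from -1.58 to 1.41. The member that was higher, ITGA9, differed by 2.49 ± 0.32 (adjusted p = 9.28e-05).

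Of 67 tested members of the interferon list, 11 were higher (16.4%) and 13 lower (19.4%), shares near those of all genes. GBP2, a guanylate-binding protein induced by interferon gamma, read 8.77, 9.01 and 8.73 on the CEM PA arrays and 5.37, 3.70, 3.52 and 4.71 on the CEM RES arrays, with 3 of 4 CEM RES arrays above background, and GBP5 was lower, at -1.88 ± 0.23. SOCS3, a brake on cytokine signalling, and ISG20, an exonuclease, were lower, at -1.95 and -1.75. RSAD2, the antiviral enzyme viperin, read 6.63, 6.47 and 5.90 on the CEM PA arrays and 8.97, 9.04, 9.06 and 9.14 on the CEM RES arrays, a difference of 2.72 ± 0.16 (adjusted p = 5.90e-07). EIF2AK2, the kinase PKR that double-stranded RNA activates, was 5.05-fold higher (adjusted p = 1.43e-06), with both probes higher. IRF5, an interferon regulatory factor, and LGALS3BP, a secreted glycoprotein, were higher by 2.06 and 1.90. The regulator IRF1 (-0.10) did not pass the test.

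MHC class I genes, whose products show peptides to CD8 T cells, were among those lower in CEM RES. Of 24 class I pathway genes tested, 7 were lower, among them HLA-B, HLA-C, HLA-E, HLA-F, HLA-G and NLRC5, and 3 were higher. HLA-B read 12.75, 12.83 and 12.74 on the CEM PA arrays and 8.68, 9.14, 9.60 and 10.06 on the CEM RES arrays, 10.6-fold lower (adjusted p = 6.72e-06), and its 3 probes ranged from -4.19 to -2.68. HLA-C differed by -1.62 ± 0.22 (adjusted p = 0.000119) and was lower with both probes, and HLA-F differed by -1.31 ± 0.23 (adjusted p = 0.000694). HLA-E (-0.76) and NLRC5 (-0.80), the factor that switches these genes on, lay just past the limit, and each lost its call when single arrays were left out (HLA-E without CEM PA array 2 (-0.73), CEM RES array 2 (-0.66) or CEM RES array 3 (-0.70), NLRC5 without CEM PA array 1 (-0.64) or CEM RES array 2 (-0.65)). The class I genes are close copies of each other, and how far their probes cross-hybridize was not tested. In class II, 1 of 13 tested genes was higher and 1 lower, with a median of 0.07. HLA-DMA, which loads peptides, was lower, at -1.27 ± 0.23 with both probes, RFXANK, a subunit of the factor that binds class II promoters, was higher by 0.91 ± 0.18 but not called after correction for probe GC (0.723), and CIITA (0.44) did not pass. PDIA3, a chaperone of class I assembly, was higher by 0.94 with the probe used and at -0.36 with its other probe.

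The upstream sequences of the strongest of these genes are shown for elements known from class I promoters. In RefSeq on GRCh38.p14, the 250 bases before each gene's start were searched on both strands for GGGGATTC (part of the kappa B element), TTTCACTTC (an interferon-stimulated response element), TGACGC (part of the SXY module bound with NLRC5) and CCAATCA (its Y box). HLA-B and HLA-C held all 4 in the same order, marked in capitals below, from bases 185 and 181 to base 42 before the start.
HLA-B chr6:31357221-31357364, minus strand: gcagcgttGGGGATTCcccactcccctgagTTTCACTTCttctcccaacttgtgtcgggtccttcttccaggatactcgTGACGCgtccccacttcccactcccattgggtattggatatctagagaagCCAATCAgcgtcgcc
HLA-C chr6:31272134-31272273, minus strand: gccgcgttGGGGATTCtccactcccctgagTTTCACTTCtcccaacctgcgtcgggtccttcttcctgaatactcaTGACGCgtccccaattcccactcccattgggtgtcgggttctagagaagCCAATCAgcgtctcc
HLA-F chr6:29723369-29723391, plus strand: tagagaagCCAATCAgtgtcgcc
HLA-F held only CCAATCA among the motifs in this window. B2M and TAP1 were searched in the same way and are not shown. B2M held only CCAATCA, and TAP1 held none of the motifs. Of 35116 promoters of this length, 0.772% held GGGGATTC, 0.439% TTTCACTTC, 7.67% TGACGC and 6.62% CCAATCA. The matches describe letters only and say nothing about binding in these cells.

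In NAD+ metabolism, 6 of 32 tested genes were higher and 2 lower. NAMPT, the target of FK866, read 11.69, 11.76 and 12.26 on the CEM PA arrays and 11.25, 10.86, 11.001 and 11.29 on the CEM RES arrays, a difference of -0.81 ± 0.19 (adjusted p = 0.00441) with no overlap. Its call was marginal, since its 3 probes ranged from -0.81 to 0.01 and it was not called without CEM PA array 3 (-0.63) or CEM RES array 2 (-0.73). QPRT, which makes NAD+ precursors from tryptophan, was at -0.02 ± 0.19, and NAPRT1, the entry of nicotinic acid, at 0.11 ± 0.27, and neither passed the test. IDO1, which opens the tryptophan route, read 1.83, 3.13 and 2.88 on the CEM PA arrays and 6.22, 4.99, 6.48 and 5.42 on the CEM RES arrays, with 2 of 3 CEM PA arrays above background, a difference of 3.16 ± 0.43 (adjusted p = 0.000125). NADKD1, the mitochondrial NAD kinase, was higher by 1.45 ± 0.26. Among the enzymes that consume NAD+, SIRT6, a nuclear deacylase, was 2.56-fold higher (adjusted p = 3.18e-05), and SIRT3, the main mitochondrial deacetylase, was lower with both probes, at -1.18 ± 0.15 (adjusted p = 8.47e-05), although its difference on the FK866 arrays was -0.29. CD38, an NAD+ glycohydrolase of the lymphocyte surface, was at 0.78 ± 0.18 and was not called without CEM PA array 1 (0.64) or CEM RES array 1 (0.68). The median of the consumers, 0.23, turned to -0.08 when the probes of a gene were averaged.

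Genes of apoptosis changed in both directions. Of 34 BCL2 family and caspase genes tested, 11 were lower and 6 higher. BAX, which opens the outer mitochondrial membrane, read 11.72, 12.54 and 12.21 on the CEM PA arrays and 9.53, 9.04, 8.80 and 8.92 on the CEM RES arrays with the probe used, 8.48-fold lower (adjusted p = 1.98e-06), and was at -0.75 with its other probe. The BH3-only genes BMF and BBC3, which trigger BAX, were lower, at -2.58 ± 0.33 and -1.37 ± 0.22. PMAIP1, another of this class, was higher by 1.32 ± 0.19, and DIABLO, which frees caspases from their inhibitors, was higher with both probes, by 1.25 and 2.72. BCL2L11, which encodes BIM, was at -1.26 with the probe used and reached 2.004 with another of its 3 probes. CFLAR, the inhibitor of caspase 8, read 6.34, 6.33 and 6.38 on the CEM PA arrays and 8.16, 7.98, 8.38 and 8.23 on the CEM RES arrays, but its 3 probes ranged from -0.72 to 1.84, and after scaling by the 75th percentile of each array the difference was -0.50. The caspases and RIPK1, a kinase of death receptor complexes at -1.38, had 4 lower and 1 higher of 10. Of the guardians, BCL2 (-0.43) and MCL1 (-0.01) did not pass, and BCL2L1 stayed under the fold limit at 0.69 ± 0.20, becoming a call without CEM PA array 1 (0.82) or CEM RES array 1 (0.78). The median of the whole list, -0.37, turned to 0.07 when the probes of a gene were averaged.

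In growth signalling, 19 of 71 genes tested were lower and 6 higher, with a median of -0.31. Among PI3K and mTOR genes, 9 of 25 were lower and 1 higher (median -0.37), and among inhibitors of these routes 7 of 24 were lower and 1 higher (median -0.46), while among RAS and MAPK genes 4 of 22 were higher and 3 lower (median 0.04). PIK3R5, a regulatory subunit of PI3K gamma, was lower on every array, reading 7.85, 7.67 and 7.84 on the CEM PA arrays and 6.32, 6.16, 6.16 and 6.29 on the CEM RES arrays. RGS2, a brake on G proteins, was 3.71-fold lower. SPRY2, an inhibitor of RAS signalling, was 2.81-fold higher. NRAS and SOS1, a RAS protein and its exchange factor, were higher by 1.37 and 1.26 with the probes used and by 0.22 and 0.52 with the lower of their probes.

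In the cell cycle, 6 of 61 tested genes were higher and 11 lower, both shares near or under those of all genes. CDKN1C and CDKN2D, inhibitors of cyclin-dependent kinases, were lower, at -2.76 ± 0.43 and -1.41 ± 0.20, RB1, the retinoblastoma protein gene, was lower, at -1.02 ± 0.16, and CDK4 was higher by 1.11 ± 0.18. The lines did not overlap for these 4 genes, which the rule that named them required. MCM4, a subunit of the replicative helicase, was higher by 1.20 ± 0.16. MKI67, a proliferation antigen, was higher by 3.38 with the probe used but by 0.54 with the lowest of its 3 probes. The 2 probes of E2F3, a transcription factor of S phase entry, disagreed in sign (-1.49 and 1.06).

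Chromatin regulators were lower in 16 and higher in 4 of 70 tested, with a median of -0.21. DNMT3B, a DNA methyltransferase, read 12.76, 12.35 and 12.45 on the CEM PA arrays and 8.05, 10.80, 10.67 and 11.01 on the CEM RES arrays, with CEM RES array 1 far under the rest. HDAC3, a histone deacetylase, was 3.2-fold lower (adjusted p = 1.40e-05) without overlap. KDM4B, a histone demethylase, and CBX7, a Polycomb reader, were at -1.48 and -1.65 with the probes used and at 0.32 and 0.66 with their other probes. EP300, a histone acetyltransferase, was higher by 2.08 ± 0.33 (adjusted p = 0.000358).

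Cytosolic ribosomal proteins had the lowest share of calls of the 22 lists. Of 78 tested, 5 (6.4%) were higher and 0 lower, with a median of 0.15, and RPL37, of the large subunit, was the highest at 1.13 with the probe used and at 0.25 with its other probe. One-carbon and nucleotide enzymes were higher in 6 and lower in 0 of 20, with a median of 0.48 that lay between 0.34 and 0.63 in all alternatives. GART, of purine synthesis, was higher by 1.24 ± 0.20 with both probes, UMPS, of pyrimidine synthesis, by 1.19 ± 0.24, and MTHFD2L, a mitochondrial folate enzyme above background on 2 of 3 CEM PA arrays, by 2.50 ± 0.35. Of 25 antioxidant genes tested, 3 were higher and 2 lower, with a median of 0.18. Both lower genes were biliverdin reductases. BLVRA differed by -1.98 ± 0.23 and BLVRB by -5.12 ± 0.70, with 2 of 4 CEM RES arrays above background.

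Chaperones of the endoplasmic reticulum were lower in 6 and higher in 1 of 16 tested, with a median of -0.58 that lay between -0.73 and -0.40 in all alternatives. MANF, a secreted chaperone of this compartment, was lower, at -1.43 ± 0.22 (adjusted p = 0.000277). Of the integrated stress response, 4 of 25 were higher and 4 lower, and CHAC1, a glutathione-degrading target of ATF4, was higher with both probes, by 1.68 and 1.87. Among heat shock genes, HSP90AB1, the constitutive HSP90, read 13.31, 12.62 and 12.98 on the CEM PA arrays and 14.06, 14.25, 14.89 and 14.45 on the CEM RES arrays, higher with both probes, while HSPA1B, an inducible HSP70, was lower, at -1.76 ± 0.22. Sterol and fatty acid synthesis was even, with 4 higher and 4 lower of 37. FASN, the fatty acid synthase, was higher by 1.31, and INSIG1, which holds back sterol synthesis, and SCD, the stearoyl-CoA desaturase, were lower, at -1.29 and -1.30. INSIG1 differed by -0.39 on the FK866 arrays.

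Markers of other blood lineages were 7 higher and 6 lower of 30 tested, and 21 of the 54 were too dim to test. The lower members included cytotoxic genes. GNLY, the granule protein granulysin, read 6.74, 6.88 and 8.87 on the CEM PA arrays and 2.70, 1.46, 5.68 and 4.61 on the CEM RES arrays, with 2 of 4 CEM RES arrays above background, and PRF1, perforin, and GZMA, granzyme A, were lower, at -2.23 ± 0.31 and -1.44 ± 0.24. The median of the 6 natural killer genes tested was -1.38, and it was 0.42 over the members left when every one of the 13 arrays had to be above background. IGLL1, a surrogate light chain of early B cells, was higher with both probes, by 2.24 and 2.38. The probes of CD72, a B cell co-receptor, disagreed (-2.73 and 1.96). GP9, a platelet glycoprotein, was higher by 4.40 ± 0.62, with 2 of 3 CEM PA arrays above background. Of 7 B cell markers, 4 were above background on all CEM PA arrays and 3 on all CEM RES arrays.

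Some genes outside these lists were called with every probe. Those named by the rule on several probes included LGALS3, galectin 3, which read 7.64, 7.05 and 7.34 on the CEM PA arrays and 10.63, 9.99, 11.03 and 10.78 on the CEM RES arrays, and MT1H, a metallothionein, which was higher by 3.41 ± 0.27. Lower were FHL2, a LIM-domain co-regulator, which read 10.53, 10.79 and 10.82 on the CEM PA arrays and 6.75, 7.12, 7.26 and 7.41 on the CEM RES arrays, NLRP3, the sensor of the inflammasome, at -3.46 ± 0.28, PLXNB2, a semaphorin receptor, at -3.36 ± 0.18, and CTTN, the actin organizer cortactin, at -3.24 ± 0.41. For these 6 genes the lines did not overlap, which the rule that named them required. SYCE3, KIAA0125, TMEM9 and CRAT, the carnitine acetyltransferase, were lower, at -3.35, -3.43, -3.09 and -2.76. Of 16 housekeeping genes 2 were lower and 0 higher (median -0.03), among them GUSB, beta-glucuronidase, at -1.70.

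By chromosomal position, chromosomes 1 to 22 and X all held genes called in both directions, but the shares were uneven. The share called higher ran from 12.9% on chromosome 18 to 19.6% on chromosome 6. The share called lower ran from 13.1% on chromosome 21 to 21.4% on chromosome 22. Chromosome 2 leaned lower, with 13.9% higher and 21.2% lower. Chromosome 1 leaned the other way, with 18.1% higher and 14.9% lower. The median difference of a chromosome ran from -0.072 on chromosome 4 to 0.105 on chromosome 1. In windows of 10 Mb with at least 20 genes, by probe position on hg19, the medians of 262 windows had an SD of 0.166, compared with 0.158 for the same windows on the FK866 arrays and 0.072 between the CEM PA sessions. The windows with the 5 highest and 5 lowest medians were chosen by these values and are given as a description. The highest was 40 to 50 Mb on chromosome 9 at 0.664, where 11 of 26 genes were higher and 1 lower, followed by 20 to 30 Mb on chromosome 6 at 0.563, 140 to 150 Mb on chromosome 1 at 0.492, 60 to 70 Mb on chromosome 9 at 0.451 and 50 to 60 Mb on chromosome 6 at 0.421. The chromosome 6 window from 20 Mb holds the main histone cluster, and without histone and small RNA genes its median was 0.167. The next window below these had a median of 0.381. The lowest was the end of chromosome 22 from 50 Mb at -0.427, with 12 of 39 genes lower and 4 higher, among them PLXNB2, SYCE3 and ARSA (-2.07), the lysosomal arylsulfatase A. It was followed by 220 to 230 Mb on chromosome 2 at -0.345 with STK16 (-1.52) and TUBA4A (-1.48), 70 to 80 Mb on chromosome 9 at -0.321 with TMEM2 (-2.19, of 4 probes from -2.19 to 0.11), and then 0 to 10 Mb on chromosome 3 with IL17RE (-1.75) and 110 to 120 Mb on chromosome 2 with SH3RF3 (-2.20), both at -0.306, and the next had -0.289.

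The FK866 arrays did not choose these windows, though they share the scan sessions of their lines. There the 5 highest windows, in the order given, had medians of 0.842, 0.649, 0.364, 0.548 and 0.33, and the 5 lowest -0.349, -0.114, -0.208, -0.15 and -0.038. All 10 kept their sign. Between the CEM PA sessions, in which line plays no part, the windows of chromosome 9 from 60 Mb and chromosome 6 from 20 Mb had medians of 0.254 and 0.233, session 2 minus session 1, the former the highest of all 262, and the highest window of chromosome 9 had 0.142. With the CEM PA array of session 1 alone as the parental side, the chromosome 9 windows from 40 and 60 Mb were at 1.01 and 0.83, and with normexp background correction at 0.27 and 0.21. After adjustment for probe GC the end of chromosome 22 was at -0.548 and the highest window of chromosome 9 at 0.476. The medians are of RNA, and DNA copy number was not measured here.

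**Figure D4:**
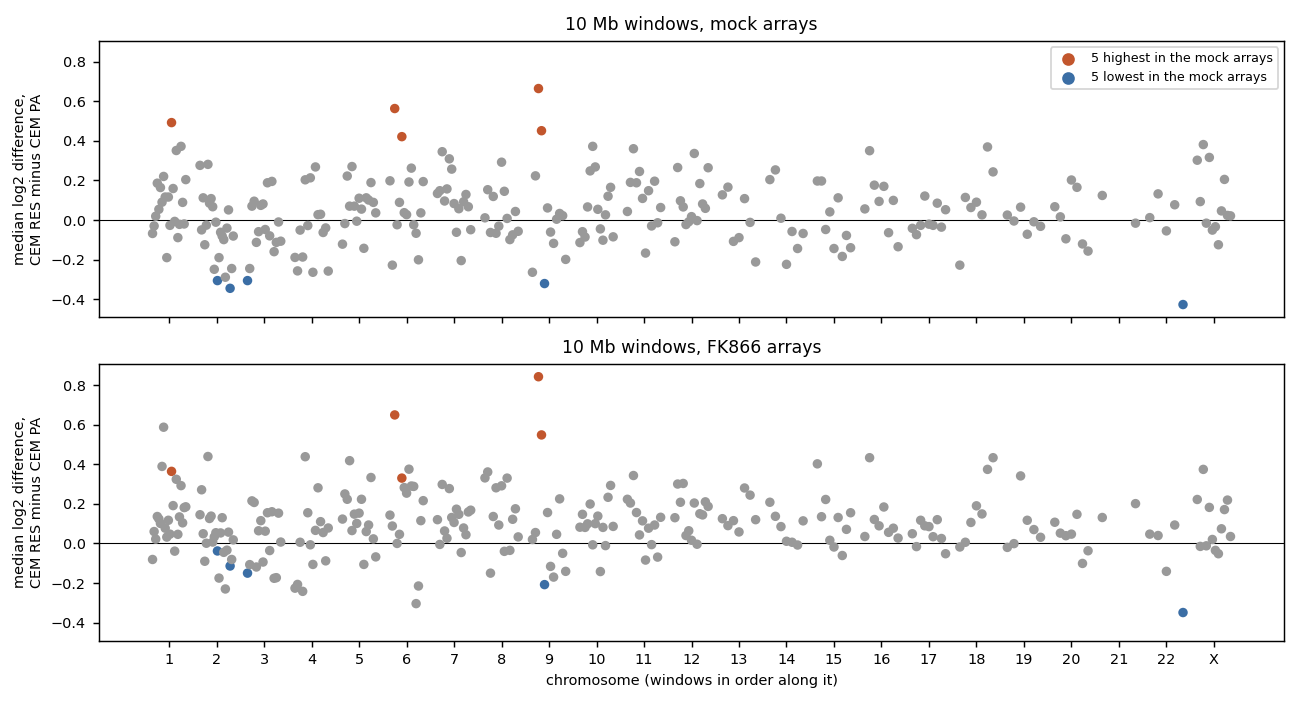
Median log2 difference of CEM RES minus CEM PA in 262 windows of 10 Mb along chromosomes 1 to 22 and X, for mock arrays (top) and FK866 arrays (bottom). Coloured points are the 5 highest and 5 lowest windows of the mock arrays, which run from 0.664 to -0.427 there and keep their sign in the FK866 arrays.

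The line difference was measured again in the 6 FK866 arrays, which share the scan sessions of the mock comparison. There it also includes the response of each line to 5 nM FK866 for 48 h. The paper reports that the drug changed more genes in CEM PA than in CEM RES. A value that differs from the mock one can therefore reflect that response, and the 2 were not separated. The group means of both comparisons come from different arrays. However, all arrays were normalized and filtered together, and a single model gave both comparisons the same variance estimate for each gene. The overlap of their calls is therefore not one between independent tests. On the FK866 arrays 4682 of 17596 genes (26.6%) were called between the lines. Of the 5849 mock calls, 3459 (59.1%) were called in the same direction and 5 in the opposite direction, and these 3459 made up 73.9% of the FK866 calls. The same sign was seen in 5690 mock calls (97.3%). The difference between both line differences passed the test in 23 genes (0.131%), which include 0 of the 164 genes named here. With 2 CEM PA arrays under FK866 this test can miss sizeable changes, so a gene that did not pass was not shown to be unchanged. IL7R differed by 2.15 on the FK866 arrays, HLA-B by -2.86, GBP2 by -4.39 and MYC by 0.94. Of the named genes, NOTCH3 and TXK lay farthest from their mock values, at 0.20 and -1.14, and the change did not pass the test for either (adjusted p = 0.41 and 0.246). Of 134 named genes called in the mock arrays, 10 had a difference on the FK866 arrays of less than 50% of the mock one, CCR7 and NOTCH3 with the opposite sign and KDM4B, SIRT3, INSIG1, NRAS, CBX7, TXK, SPRY2 and MYC with the same sign.

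**Figure D5:**
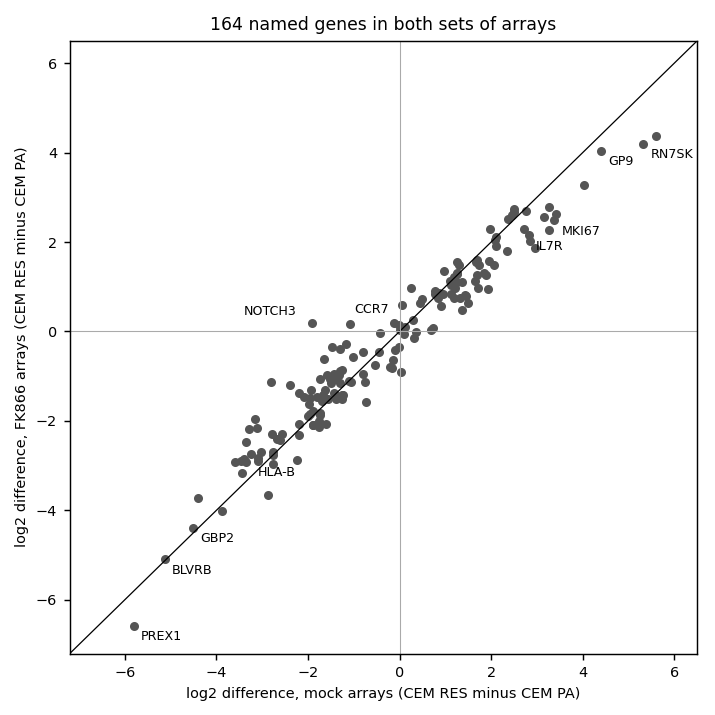
Log2 difference of CEM RES minus CEM PA for 164 named genes in the mock arrays (x axis) and in the FK866 arrays (y axis), with the line of equal values. Most genes lie near the line, GBP2 at -4.51 and -4.39 for example, and NOTCH3 (-1.91 and 0.20) and CCR7 (-1.07 and 0.17) lie above it.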

How the data were processed

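The authors deposited, per the file headers, the intensity of each spot from Agilent Feature Extraction (10.7.3.1 in the files, 10.7.7.1 in the submitters' processing notes), and a log2 table quantile normalized over 13 arrays, used here only as an alternative. From the intensities, log2 signals had outlier spots and control spots removed, were quantile normalized over 13 arrays and averaged per probe. Probes had to exceed background clearly on all arrays of some group (22753 of 34127 did), and a gene was represented by its brightest kept probe. Limma 3.58.1 (R 4.3.3) fitted 4 groups in a single model with Benjamini-Hochberg adjustment, and the procedure was tested on simulated data. Precision is limited by the number of arrays and by how far a signal exceeds background.

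Members and lists were chosen with earlier results of these data known, and the lists of variant histones and RNA polymerase III transcripts were added after values had been seen. Named were genes with at least 2 probes called alike (10 largest each way), up to 4 called members of each list each way, leading genes of the named windows, and fixed genes such as CD3D and NAMPT. The largest genes and the list members also had to have arrays that did not overlap between the lines. HLA-E, HLA-G, NLRC5, RBPJ and FBXW7 were named after their values were seen, and DTX1, TLX1, TLX3, KYNU and CD74 had no probe that passed the filter. Some genes of this rule are not reported here. Alternatives covered scaling, background correction, filters, probe choice, blocks, array weights, the unadjusted p and each array left out in turn. Probe GC, the most downstream probe, the session 1 array alone and windows without histone and small RNA genes were added after seeing the data. Gene names come from the array design. Promoter sequences are from RefSeq (GRCh38.p14).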

Additional observations from a re-analysis of the deposited data

Results flagged for a closer look

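Of 164 genes named in the text, 5 had 1 CEM RES mock array that lay far from the other 3, measured as its gap to the nearest array against the range of the group; chance alone marks about 1 in 20 groups. On CEM RES array 1 BLVRA was the highest at 9.67 (next 8.9) and DNMT3B the lowest at 8.05 (next 10.67), on log2 signal. On array 2 BMF was the lowest at 3.82 (next 4.67). On array 3 CTTN was the lowest at 4.54 (next 5.66), as was TNFRSF10C at 0.99 (next 2.57), where 0 CEM RES arrays were above background. The lines did not overlap for these genes, which the rule that named them required. What set these arrays apart was not tested.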

How the results depend on the processing

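The 5849 calls changed to 3779 with normexp background correction (offset 50), of which 3696 were also called in the same direction before; other settings gave 4841 to 6167, with 5513 to 5896 when single mock arrays were left out and 4997 with the CEM PA array of session 1 alone. With 75th percentile scaling the median of all genes was 0.156 instead of 0.04 and 59.5% of the calls were higher instead of 50.6%, so that counts of higher and lower genes depend on it. The replicate block gave 6111 calls, but same-numbered arrays of both lines did not deviate together (correlations -0.127, 0.052 and -0.174), so the numbers do not pair the arrays. Correction for probe GC gave 5693 calls and scan session as a random block 5674. Directions changed for CFLAR (-0.501) with 75th percentile scaling, under which the brightest probe of a gene was chosen anew. They also changed for BCL2L11 (0.305), CD72 (-0.385), ITGA4 (0.003) and MYB (0.973) with the mean of a gene's probes. With the most downstream probe they changed for CD72 (-2.727), IL15RA (-0.265), PDIA3 (-0.356) and SH2D1A (-0.608). The cause was not tested. Of 72 list medians, 23 changed sign in at least 1 setting, and 0 of 10 windows did. Signals near background limit the fold of dim genes, and line and scan session cannot be told apart in any setting.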
